A study of Mus musculus with 4 samples.

Results

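Interferons are secreted proteins that warn cells of infection. Type I interferons signal through a receptor of Ifnar1 and Ifnar2 and lead to a transcription factor complex with IRF9 that binds the interferon-stimulated response element (ISRE), whereas interferon gamma signals through Ifngr1 and Ifngr2 to a factor that binds the gamma-activated site (GAS). The genes switched on this way encode sensors of foreign RNA, proteins that block viral entry or translation, GTPases that attack vacuoles of intracellular microbes, and the machinery that prepares antigens. Blood-forming progenitors can carry a low constant output of some of them without infection.

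A list of 52 interferon-induced genes was followed by gene symbol in an array series of cultured mouse progenitors. The table writes symbols in capitals (GBP6, IFI30, SERPINA3G), and the usual mouse spelling is used here. Of the list, 50 genes had a value among the 18113 genes of the table, and the levels of 2, Isg15 and Xaf1, were not analysed here. A log2 level of 6 served as a floor, below which a value gives only a bound. With that floor 20 of the 50 members were measured on at least 1 array and 17 on every array. The measured share was 40.0%, against 34.9% of all genes in the table.

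The cells were c-Kit-positive, Ter119-negative progenitors of the fetal liver, taken from C57BL6/J embryos at day 13.5 and kept in medium with 10 ng/ml FLT-3L, 20 ng/ml IL-7 and 100 ng/ml SCF. In every group they were expanded for 24 hours, infected with a retrovirus, cultured for another 48 hours and then grown for 12 days. Wild-type and Btg1-/- cells each received either a control virus or the leukemia fusion ETV6-RUNX1, which made 4 groups. Btg1 encodes an antiproliferative co-regulator. Each group was 1 array, so no difference was tested or checked in a replicate. The labels name no treatment with an interferon, and they give neither the number of embryos behind a culture nor the share of infected cells.

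Btg1 stood at 11.87 and 11.97 on the wild-type arrays and at 9.02 and 9.97 on the knockout arrays, without and with the fusion. The knockout arrays thus kept a Btg1 signal above the floor and differed in it by 0.95. The source of this signal was not tested. Each array had between 5869 and 5900 genes at or above the floor. The knockout array with ETV6-RUNX1 stood apart. For the 1535 genes that averaged 10 or more, log2 differences had a robust standard deviation of 0.120 and 0.135 in the comparisons without this array, and of 0.240 to 0.296 in those with it. Of 5 B-cell progenitor markers, 4 were measured and Pax5 lay below the floor. All 7 mast cell and basophil markers were measured, all 6 T and NK cell markers lay below the floor, and of 10 macrophage and dendritic cell markers 7 did, among them the defining genes Csf1r, Emr1, Itgax and Siglech.

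RefSeq windows of build GRCm38.p6, from 250 bases before to 50 bases after each gene start, were matched to 40 of the 52 listed genes, Isg15 and Xaf1 among them. The ISRE core was searched as GAAA-NN-GAAA, with N for any base and no gap, and the GAS core as TTCNNNGAA, on both strands. An ISRE core was present in 21 of the 40 genes (52.5%), against 3.99% of all 27025 genes in the promoter table, and a GAS core in 13 (32.5%), against 9.55%. Among the 18 measured members with a window, 8 held the ISRE core and 9 the GAS core. Among the 20 members below the floor with a window, 12 held the ISRE core and 4 the GAS core. These counts were not tested against each other, and 6 of the 18 measured members had more than 1 window, against 1 of the 20 below the floor. The same shares over array genes of any kind were 3.57% and 8.24% of measured genes, and 4.38% and 9.64% of genes below the floor. A match is a string of letters and not a measured binding site.

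**Figure D1:**
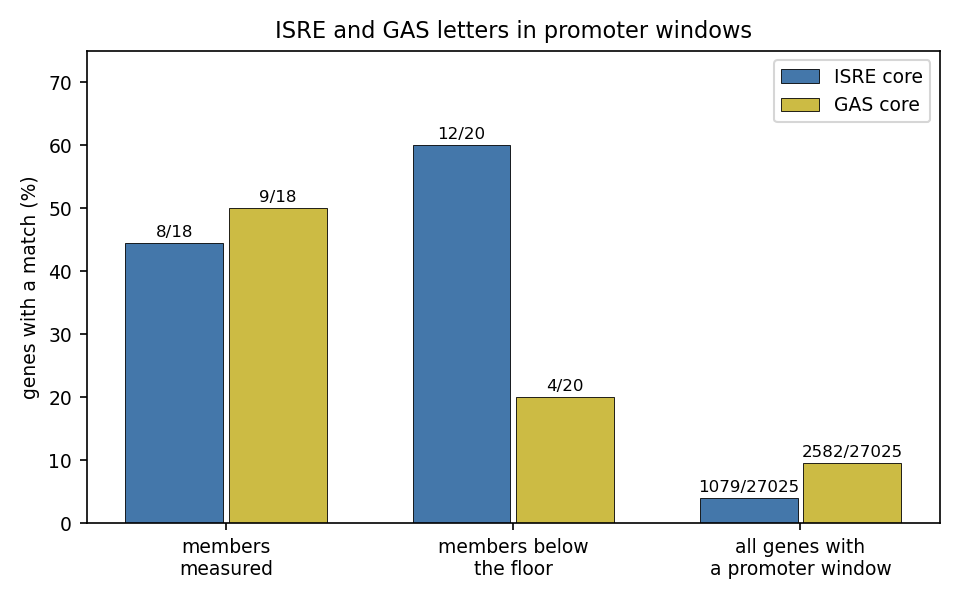
Share of genes (%) whose promoter window holds an ISRE core or a GAS core, for measured members, members below the floor and all genes with a window, with the counts above each bar. The ISRE core was found in 8 of 18 measured and 12 of 20 unmeasured members, and the GAS core in 9 of 18 and 4 of 20.

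Stretches of 6 of these promoters are printed 5′ to 3′ on the strand of the gene, from GRCm38.p6, with every ISRE or GAS core in capitals. They were chosen with the levels known, to set measured members beside members of the same families or motifs that lay below the floor. Gbp3 was measured, whereas its neighbours Gbp2 and Gbp5, whose starts lie 60307 and 63422 bases away on chromosome 3, were not. The Gbp3 stretch is chr3:142559970-142560043, Gbp2 is chr3:142620569-142620648, Gbp5 is chr3:142496734-142496813, Igtp is chr11:58199487-58199555, Serpina3g is chr12:104236079-104236146 and Ifit1 is chr19:34640769-34640848, all on the plus strand.
Gbp3: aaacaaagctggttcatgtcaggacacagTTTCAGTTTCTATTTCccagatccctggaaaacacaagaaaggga
Gbp2: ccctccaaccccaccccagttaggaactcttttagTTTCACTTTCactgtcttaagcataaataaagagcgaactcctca
Gbp5: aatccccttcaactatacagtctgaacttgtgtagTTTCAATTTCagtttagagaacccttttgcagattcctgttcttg
Igtp: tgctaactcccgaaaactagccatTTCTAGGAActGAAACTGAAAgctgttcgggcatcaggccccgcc
Serpina3g: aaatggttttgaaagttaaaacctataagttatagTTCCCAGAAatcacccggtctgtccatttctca
Ifit1: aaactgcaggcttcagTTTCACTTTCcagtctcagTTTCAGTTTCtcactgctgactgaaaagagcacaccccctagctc
Gbp3, Gbp2, Gbp5 and Ifit1 carry the ISRE core in its reverse orientation, Igtp holds a GAS core next to an ISRE core, and the Serpina3g stretch holds a GAS core. The ISRE letters are thus printed for 3 guanylate-binding genes of which 1 gave a level above the floor.

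Of 18 antiviral effectors with a value, 12 (66.7%) lay below the floor on every array, as did 65.1% of all genes. Their levels ran from 1.99 to 4.52. These were Ifit1 and Ifit3, Ifitm1, Isg20, the oligoadenylate synthetase genes Oas1a, Oas2 and Oas3 with their relatives Oasl1 and Oasl2, the dynamin-like genes Mx1 and Mx2, and Rsad2, the gene of viperin. The RNA sensor genes Ifih1, Ddx58 and Dhx58 and the ubiquitin ligase gene Trim21 lay below it as well, as did Stat2, the regulator Irf7 and Usp18, which dampens type I receptor signaling. So did Gbp1 (which the table describes as guanylate binding protein 2b), Gbp2, Gbp4, Gbp5 and Iigp1 among the GTPases, Ifi202b, Ifi204 and Ifi205 among the HIN-200 genes, and Tapbp, Ifi44 and Rtp4. Of these 30 genes, 20 stayed below 4 on every array. Levels below 4 were common in the table, as the median of all genes was 3.63 to 3.64 on each array. The share of all genes below 4 on every array was not computed. The closest to the floor from below were Stat2, with a highest level of 5.59, and Tapbp, with 5.46. The closest from above were Trim25, with 6.16, and Adar, with 6.32.

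The 6 measured antiviral effectors each kept within 0.49 over the arrays. Eif2ak2, the gene of the RNA-activated kinase PKR that stops translation, had levels of 8.64 and 8.68 in wild type and of 8.61 and 8.58 in the knockout, in each pair first with the control virus and then with the fusion, an order kept below. Its range over the arrays was 0.09, the smallest of the 17 members measured on all of them. Ifitm2, whose product blocks virus fusion, stood at 12.19 and 12.34 in wild type and at 12.34 and 12.11 in the knockout. Ifitm3, its relative, stood at 10.23 and 10.01 in wild type and at 10.18 and 9.74 in the knockout, with lower values on both ETV6-RUNX1 arrays. Ifitm1 lay below the floor although its start is only 12115 bases from that of Ifitm2. Adar, the RNA-editing enzyme gene, remained close to the floor, with 6.11 and 6.26 in wild type and 6.08 and 6.32 in the knockout.

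Ifit2, which encodes a tetratricopeptide protein that acts on translation of viral RNA, stood at 7.89 and 7.93 in wild type and at 7.86 and 8.28 in the knockout. The knockout array with ETV6-RUNX1 was the high one, by 0.42 over the knockout control. Bst2, or tetherin, which holds budding virus at the cell surface, stood at 8.62 and 8.28 in wild type and at 8.20 and 8.60 in the knockout. ETV6-RUNX1 therefore went with a difference of -0.34 in wild type and of 0.40 in the knockout.

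The measured genes of signal and transcription stood near the floor. Irf1, an early transcription factor of the interferon gamma response, had levels of 6.60 and 6.28 in wild type and 6.45 and 6.54 in the knockout. Irf9, the DNA-binding part of the type I complex, had 6.03 and 5.84 in wild type and 6.28 and 6.51 in the knockout, so that 1 of its values was a bound. Trim25, a ubiquitin ligase that activates the sensor RIG-I, had 6.16 and 6.04 in wild type, and 5.85 and 5.59 in the knockout, both below the floor. Neither Irf1, Irf9 nor Trim25 differed by 2-fold in any comparison.

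Of 10 GTPase genes, 5 were measured. Gbp6 stood at 8.24 in the wild-type control, 7.30 with the fusion in wild type, 7.89 in the knockout control and 6.12 with the fusion in the knockout. Gbp3 stood at 10.15 and 9.44 in wild type and at 10.14 and 9.19 in the knockout. For both genes the ETV6-RUNX1 arrays were the lower ones in each genotype. The values with both lesions were the lowest, for Gbp3 with a difference of -0.24 from the wild-type array with the fusion. Guanylate-binding proteins assemble on the membranes of microbes and their vacuoles. Their genes form families of close paralogs, and the probes behind the values are not known, so a share of the signal may come from a relative.

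The immunity-related GTPases, which act on the same vacuoles, did not follow that order in full. Igtp, also called Irgm3, stood at 8.08 and 7.57 in wild type and at 8.09 and 7.97 in the knockout. Irgm1 stood at 7.67 and 7.73 in wild type and at 7.85 and 7.95 in the knockout. Ifi47, also called Irgd, stood at 8.53 and 8.02 in wild type and at 7.73 and 7.76 in the knockout. For Igtp the ETV6-RUNX1 arrays were the lower ones in each genotype too, in the knockout by a difference of -0.12. Its lowest array was that of wild type with the fusion. Only the wild-type control was high for Ifi47, while Irgm1 varied by 0.28 over all 4.

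The antigen processing genes differed from each other. Ifi30 encodes GILT, a lysosomal thiol reductase that prepares antigens mainly for MHC class II. Its levels were 8.21 and 8.18 in the wild-type and knockout controls, and 7.10 and 6.84 with the fusion in wild type and knockout. Tap1 encodes a chain of the peptide transporter of the class I pathway. Its levels were instead higher in the knockout, with 7.02 and 7.06 in wild type and 7.65 and 7.46 in the knockout.

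Serpina3g encodes a serpin that inhibits lysosomal cathepsins. Its levels were 8.18 and 7.39 in wild type and 7.92 and 5.92 in the knockout. The value with both lesions was below the floor, and Serpina3g too belongs to a family of close paralogs. Ifi27, which the table's description names as the gene RefSeq calls Ifi27l2a, encodes a small hydrophobic protein and had ETV6-RUNX1 differences of opposite sign in the genotypes. It stood at 9.87 and 9.10 in wild type and at 10.28 and 10.81 in the knockout. Ifi35 stood at 7.28 and 7.02 in wild type and at 7.46 and 7.0 in the knockout, and the HIN-200 gene Ifi203 at 7.04, 7.01, 7.0 and 7.30 in the same order of arrays.

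**Figure D2:**
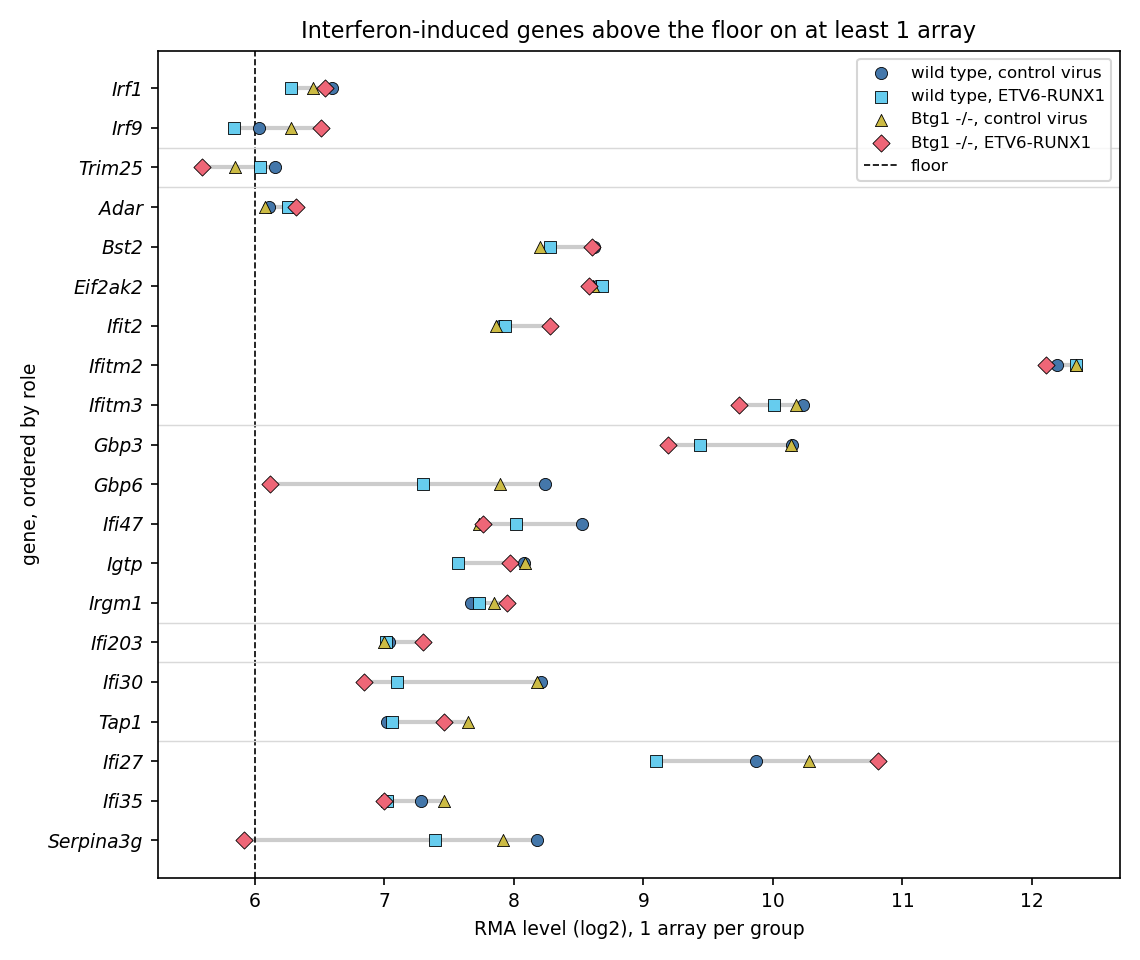
RMA levels (log2, horizontal axis) of the 20 measured members, ordered by role, with 1 symbol per array and the floor of 6 as a dashed line. Gbp6, Ifi30 and Serpina3g have the ETV6-RUNX1 arrays to the left of both control arrays, whereas Eif2ak2 has its 4 symbols within 0.09.

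ETV6-RUNX1 in wild-type cells went with lower levels of Ifi30, Gbp6, Serpina3g, Ifi27 and Gbp3. Ifi30 differed by -1.11 (2.16-fold, spread 0.28), where the spread is the robust standard deviation of the differences among genes of similar level on the same pair of arrays. It was the only member past 2-fold, and 0.359% of all 6123 genes compared were at least 2-fold lower. Gbp6 differed by -0.94 (spread 0.26), Serpina3g by -0.79 (spread 0.27), Ifi27 by -0.78 (spread 0.20) and Gbp3 by -0.71 (spread 0.17). Ifi47 and Igtp differed by -0.52 and -0.51, each with a spread of 0.27.

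Of the 20 members, 9 were lower and 1, Ifitm2 at 0.15, was higher by more than its spread, against 17.5% lower and 14.3% higher among all genes. The median member differed by -0.24, with a range of -1.11 to 0.16, beside a median of -0.02 over all genes. By role, the median was -0.52 for the 5 GTPases and 0.04 for the 6 antiviral effectors. It was -0.54 for the 2 antigen processing genes, -0.78 for the 3 genes of other roles and -0.17 for the 2 of signal and transcription. No member was at least 2-fold higher, where 1.88% of all genes were. The spread leaves out the variation between independent cultures. Fewer cells of a type and less RNA per cell cannot be told apart in these bulk cultures.

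Mast cell and basophil markers moved in this comparison as well. All 7 were at least 2-fold higher with ETV6-RUNX1 in wild type, with a median of 1.40. Their summed level, on the log2 scale, was 14.55 and 15.69 in wild type and 15.06 and 15.61 in the knockout, without and with the fusion. The part of this shift in the lower Ifi30, Gbp3, Gbp6 and Serpina3g levels was not tested. The summed level of B-cell progenitor markers was 14.74 on both wild-type arrays, and 14.78 and 15.00 in the knockout.

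In Btg1 knockout cells, ETV6-RUNX1 went with lower levels of Serpina3g, Gbp6, Ifi30 and Gbp3, and the median member lay near 0. Serpina3g was at least 3.79-fold lower, Gbp6 differed by -1.76 (3.40-fold, spread 0.46) and Ifi30 by -1.34 (2.53-fold, spread 0.45). These were the 3 members of 19 past 2-fold, and 2.37% of all 6159 genes were that much lower. Gbp3 differed by -0.95 (spread 0.33), and Ifi35 and Ifitm3 by -0.47 and -0.44. With a floor of 7, the levels of Gbp6 and Serpina3g on the array with both lesions lie below the floor, so that their differences become bounds of -0.89 and -0.92, which give no 2-fold call. Ifi30, at 6.84 on that array, then gives a bound too, and it stays at least 2-fold lower.

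The other side held Ifi27 at 0.52 (spread 0.35), Ifit2 at 0.42 (spread 0.40) and Bst2 at 0.40 (spread 0.38). In all, 6 members were lower and 3 higher by more than their spread, against 16.4% and 16.2% of all genes. The median member differed by -0.03, beside 0.01 for all genes. By role, the median was -0.12 for the 5 GTPases and 0.10 for the 6 antiviral effectors. No member was at least 2-fold higher, where 1.69% of all genes were. Mast cell and basophil markers had a median of 0.59 here, with 0 of 7 past 2-fold.

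The ETV6-RUNX1 effects of both genotypes share no array and can be set side by side. Over the 17 members measured on all arrays, 6 were lower in both, 3 higher in both, 5 lower in wild type and higher in the knockout, and 3 the reverse. Among all 5442 such genes these shares were 30.15%, 26.44%, 24.18% and 18.69%. Ifi30, Gbp3 and Gbp6 were at least 1.5-fold lower in both genotypes, as were 0.441% of all genes. Serpina3g had the same order, with its knockout value as a bound. The promoter windows of these genes differ in their letters: that of Gbp3 holds an ISRE core, that of Serpina3g a GAS core and that of Ifi30 neither. Gbp6 has no entry.

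**Figure D3:**
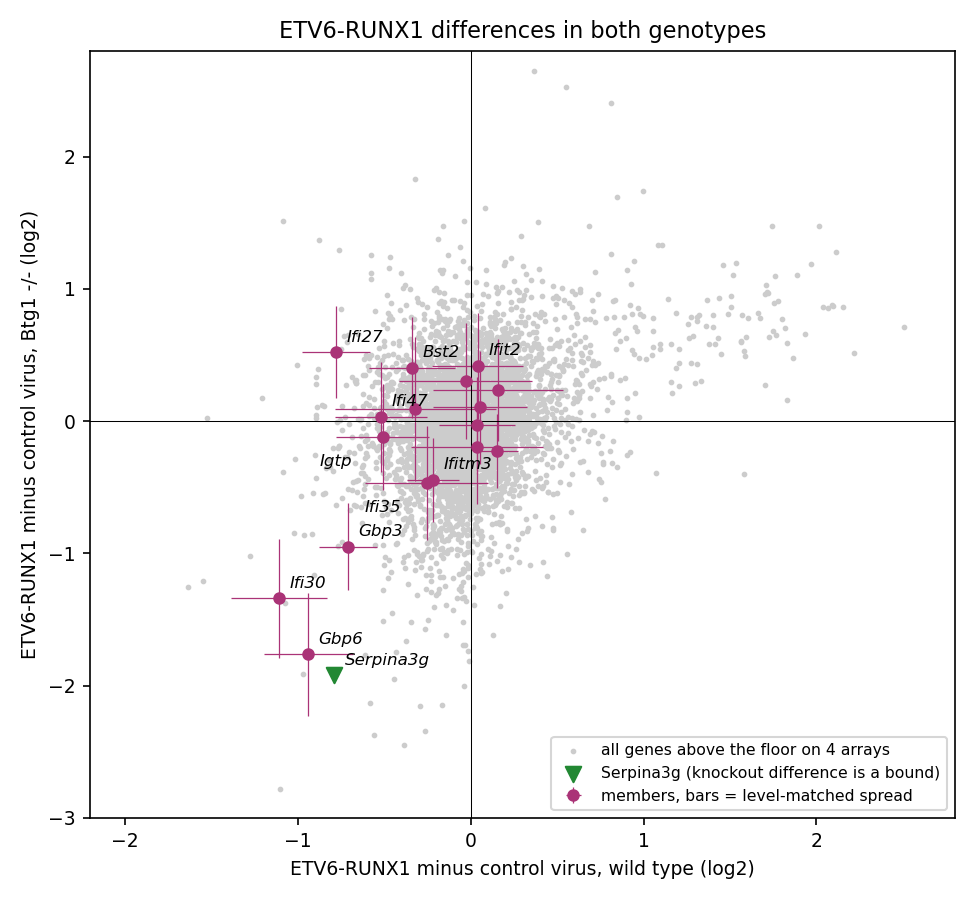
ETV6-RUNX1 minus control virus (log2) in wild type (horizontal) and in the Btg1 knockout (vertical) for all 5442 genes above the floor on 4 arrays (grey) and for members, with bars of 1 level-matched spread. Ifi30, Gbp3, Gbp6 and Serpina3g lie at the lower left, and Ifi27 lies at -0.78 and 0.52.

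Cd74, the invariant chain of MHC class II, is no member but shares with Ifi30 a role in class II presentation. It stood at 8.75 and 8.19 in wild type and at 9.52 and 7.14 in the knockout, so that its knockout difference was -2.38. H2-Ab1, a chain of a class II molecule, differed by -0.54 in wild type and by 0.30 in the knockout. H2-Aa and H2-Eb1 lay below the floor. These genes belong to the list of 10 macrophage and dendritic cell markers, of which only Cd74, H2-Ab1 and Lyz2 were measured. Lyz2 was higher with the fusion in the knockout by at least 0.67, and the median of the 3 was -0.54 in wild type and 0.30 in the knockout. The summed level of the list was 9.59 and 9.17 in wild type and 10.04 and 9.08 in the knockout, where Cd74 was the one lower measured marker. The part of these markers in the Ifi30 difference was not tested.

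Loss of Btg1 with the control virus left every measured member within 2-fold. Ifi47 differed by -0.80 (spread 0.22) and Tap1 by 0.63 (spread 0.26). Bst2 differed by -0.43 (spread 0.20) and Ifi27 by 0.41 (spread 0.13). Serpina3g, Gbp6, Gbp3 and Ifi30 differed by -0.25, -0.35, 0.00 and -0.03, with spreads of 0.22, 0.21, 0.13 and 0.20. The median member differed by -0.02, beside 0.00 for all genes, and the GTPases by 0.00. Of all 6097 genes, 0.361% were higher and 0.312% lower by 2-fold or more, so that a count of 0 of 20 members is near the background. All 7 mast cell and basophil markers were above 0 in this comparison, with a median of 0.65, and Fcer1a at 1.25 and Tpsab1 at 1.10 passed 2-fold. Their part in the members' differences was not tested.

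In cells that carried the fusion, Btg1 loss was accompanied by higher Ifi27 and by lower Serpina3g and Gbp6. Ifi27 differed by 1.71 (3.27-fold, spread 0.26), and 0.671% of all 6106 genes were at least 2-fold higher. Serpina3g was at least 2.62-fold lower and Gbp6 differed by -1.18 (2.26-fold, spread 0.45), where 0.917% of all genes were at least 2-fold lower. With a floor of 7 both differences become bounds, of -0.30 for Gbp6 and of -0.39 for Serpina3g, which give no 2-fold call. Irf9 was higher by at least 0.51 (spread 0.43), Igtp by 0.40 (spread 0.39) and Ifit2 by 0.36 (spread 0.34). Tap1 at 0.40 and Bst2 at 0.32 stayed within their spreads of 0.41 and 0.33. So did Gbp3 at -0.24 and Ifi30 at -0.26, with spreads of 0.29 and 0.43. Ifitm3 and Ifitm2 differed by -0.27 and -0.23, with spreads of 0.27 and 0.22. Past their spread lay 4 lower and 4 higher members, against 15.9% and 16.3% of all genes. The median member differed by 0.01, with 10 above and 10 below 0, beside 0.00 for all genes, of which 49.4% were below 0. For the 5 GTPases the median was -0.24. The median of the 7 mast cell and basophil markers was -0.11, and 0 of them reached 2-fold, while Cd74 differed by -1.04. The array with both lesions also enters the ETV6-RUNX1 comparison in the knockout.

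Cells with both lesions were set against the wild-type control, a comparison that shares an array with each of those above. Serpina3g was at least 4.52-fold lower, Gbp6 differed by -2.12 (4.34-fold, spread 0.46) and Ifi30 by -1.37 (2.59-fold, spread 0.43). These 3 of 20 members were at least 2-fold lower, as were 1.78% of all 6173 genes. Gbp3 differed by -0.95 (spread 0.31) and Ifi47 by -0.77 (spread 0.39), while Ifi27 differed by 0.93 (spread 0.29) and no member was at least 2-fold higher, where 2.61% of all genes were. The median member differed by -0.07, beside -0.01 for all genes. The median of the 5 GTPases was -0.77, which is the value of Ifi47. Of the 7 mast cell and basophil markers, 6 were at least 2-fold higher, with a median of 1.39, and Cd74 differed by -1.60. The part of these markers in the members' differences was not tested.

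The ETV6-RUNX1 effect in the knockout minus that in wild type was 1.30 for Ifi27 (spread 0.33), the only one of 17 members past 2-fold, where 1.67% of 5442 genes were that much higher. It was 0.74 for Bst2 (spread 0.39), 0.55 for Ifi47 (spread 0.49) and -0.82 for Gbp6 (spread 0.50). For Ifi30 and Gbp3 it was -0.23 and -0.24, below their spreads of 0.49 and 0.35. No member was at least 2-fold lower, where 2.41% of all genes were. The median member differed by 0.05, beside 0.00 for all genes. All 7 mast cell and basophil markers were below 0, with a median of -0.69 and 2 of them past 2-fold.

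**Figure D4:**
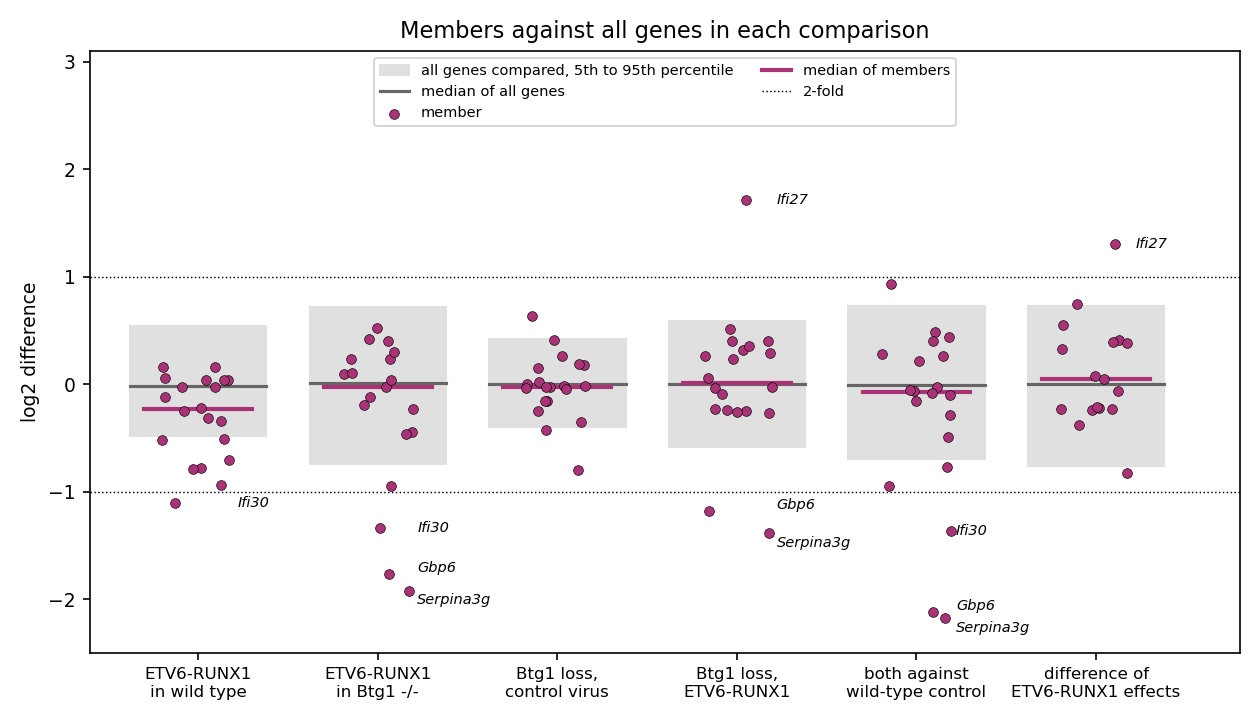
Log2 differences of the measured members in the 5 comparisons of arrays and in the difference of the ETV6-RUNX1 effects, with the range of all genes compared from the 5th to the 95th percentile as grey boxes and dotted lines at 2-fold; some values of Serpina3g, Irf9 and Trim25 are bounds. Members past 2-fold are named, and the median of members lies at -0.24 in the first comparison and between -0.07 and 0.05 in the others.

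Across the 17 members measured on all arrays, the range from the lowest to the highest array had a median of 0.47 and exceeded 2-fold for 3 of them (17.6%): Gbp6, Ifi27 and Ifi30. For all 5442 such genes the median range was 0.37, and 6.1% exceeded 2-fold. The wild-type control was the highest array for 7 of the 17 members (41.2%) and for 22.6% of all genes. The array with both lesions was the lowest for 7 members (41.2%) and for 34.7% of all genes.

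Genes upstream of the members were mostly measured. None of the measured receptors and kinases differed by 2-fold in any comparison. By comparison and direction, 0.312% to 2.61% of all genes did, so that this count is near the background. Of 12 on the list, 9 were measured. Ifnar1, a chain of the type I receptor, lay below the floor with at most 3.07, as did the kinase gene Tyk2 and the feedback inhibitor gene Socs1. Ifnar2 stood at 6.69 and 6.56 in wild type and at 6.95 and 6.70 in the knockout. The interferon gamma receptor genes Ifngr1 and Ifngr2 stood between 7.53 and 7.93 and between 6.36 and 6.85. The kinase gene Jak2 stood at 6.80 and 6.86 in wild type and at 6.21 and 7.17 in the knockout. Its knockout difference with the fusion, 0.96 (spread 0.52), was just short of 2-fold. Jak1 differed by -0.53 (spread 0.29) in wild type and by 0.44 (spread 0.46) in the knockout. Socs3 differed by -0.68 (spread 0.39) and -0.12 (spread 0.53) in the same order. The median of the 9 measured genes of the list with ETV6-RUNX1 was -0.09 in wild type, with 4 above and 5 below 0. In the knockout it was 0.34, with 6 above and 3 below 0.

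Of 13 sensors, adaptors and interferon genes with a value, 8 were measured. The interferon genes Ifnb1 and Ifng and the receptor genes Tlr3 and Tlr7 lay below the floor. Irf5 and Irf4, transcription factors of this family in myeloid and lymphoid cells, differed by -0.72 and -0.52 with ETV6-RUNX1 in wild type and by 0.27 and 0.46 in the knockout. The spreads of Irf5 and Irf4 were 0.24 and 0.15 in wild type and 0.37 and 0.33 in the knockout. Irf8 differed by -0.12 (spread 0.15) in wild type and by 0.55 (spread 0.33) in the knockout. The list's median was -0.10 in wild type and 0.23 in the knockout, with 0 members past 2-fold in either.

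Of 14 class I presentation genes with a value 12 were measured, among them B2m, the light chain of class I molecules, at 13.67 to 13.85, and the immunoproteasome genes Psmb8 and Psmb9. With ETV6-RUNX1 in wild type 8 of 11 were below 0, as were 54.3% of all genes, with a median of -0.12 and a range of -0.30 to 0.23. In the knockout 5 of 12 were below 0, as were 48.5% of all genes, with a median of 0.11. Psmb8 differed by -0.30 (spread 0.27) in wild type and by 0.38 (spread 0.41) in the knockout. In the same order H2-T23 differed by -0.12 (spread 0.16) and 0.55 (spread 0.35). The proteasome activator genes Psme1 and Psme2 were below 0 in both genotypes. Psme1 differed by -0.04 and -0.23, within its spreads of 0.12 and 0.30. Psme2 differed by -0.19 (spread 0.21) and -0.39 (spread 0.35). Pdia3, a chaperone gene, differed by -0.41 (spread 0.28) in the knockout. The chaperone gene Calr was the member past 2-fold, at -1.03 in the knockout and 0.23 in wild type.

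**Figure D5:**
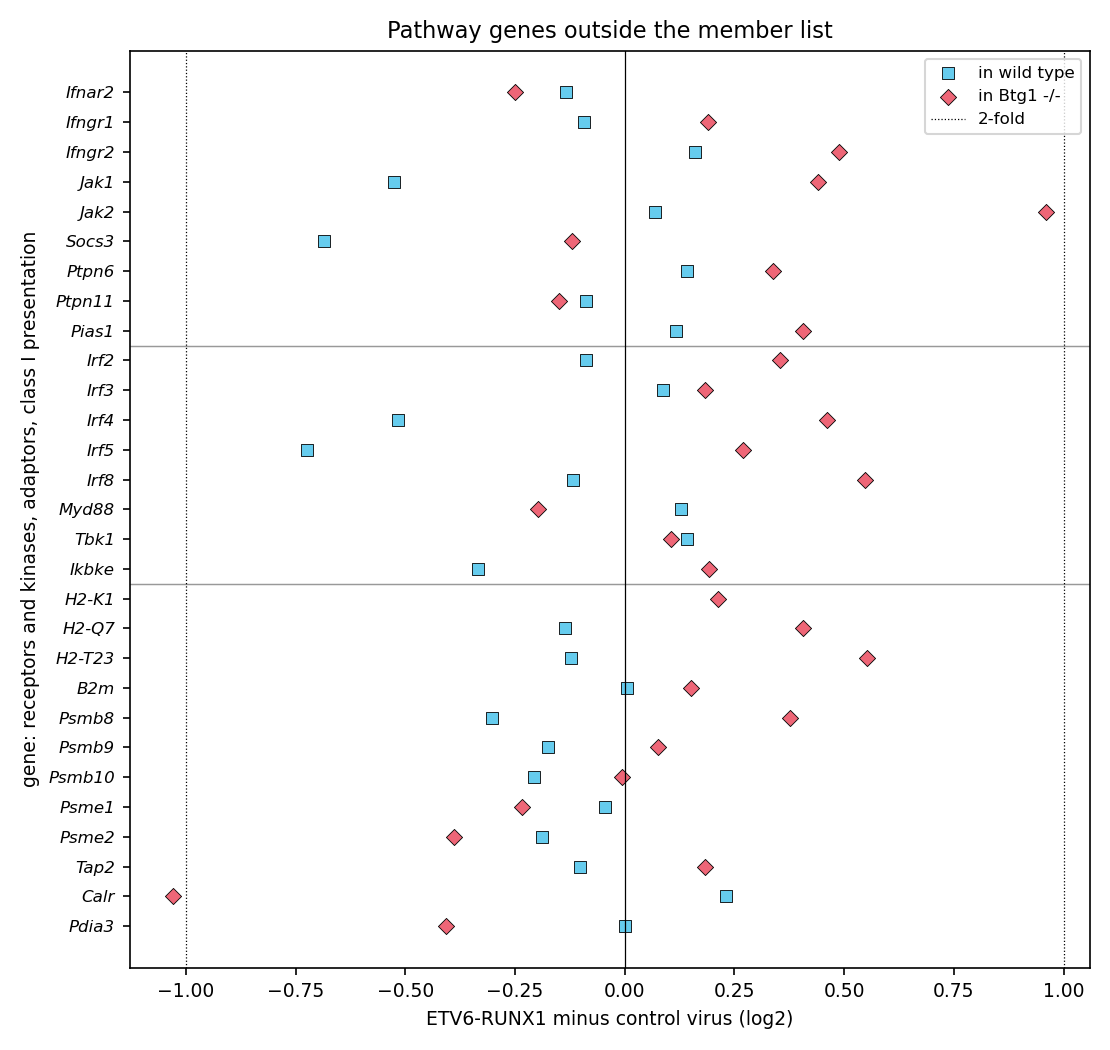
ETV6-RUNX1 minus control virus (log2, horizontal axis) for measured receptors and kinases, adaptors and class I genes, in wild type (squares) and in the Btg1 knockout (diamonds), with dotted lines at 2-fold; both points of Ikbke rest on a value raised to the floor. Calr in the knockout, at -1.03, is the point past 2-fold.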

How the data were processed

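RNA of 4 cultures was labeled with biotin and hybridized to Illumina MouseRef-8 arrays, 1 per group. Per the file headers, the deposited log2 levels were RMA-normalized by the authors in ArrayStar, which hides any shift common to all genes of an array. Fold ratios that the authors deposited for 5 pairs of arrays matched the levels within 1e-05 (log2). A further 8 columns, of signal and detection values, match no sample's labels and were not used. The floor was therefore not checked against detection values.

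Values below 6 were raised to it. A gene entered a comparison if 1 of the arrays reached 6, and entered the difference of effects if all 4 did. The spread is the scaled median absolute deviation over neighbours in mean level. The plan named no test, since each group has 1 array; an additive model with 1 residual degree of freedom was not fitted. The members, lists and printed promoters were chosen with earlier results of these data known. The rule named all measured members and genes of the lists for receptors and kinases, sensors and adaptors, class I presentation and cell types, of which 1 gene is not reported here and was left out of its list's counts and medians. Of the 50 symbols, 49 matched RefSeq. Alternatives were other floors, scaling, filters and call rules. Python 3.11.15, numpy 2.4.6, pandas 2.3.3 and matplotlib 3.10.9 were used, and calculations were tested on simulated data.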

Additional observations from a re-analysis of the deposited data

Results flagged for a closer look

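Ifi27 and Bst2 were singled out because ETV6-RUNX1 went with a lower level in wild type and a higher level in the knockout, each by more than the level-matched spread. Among all 5442 genes measured on every array, 24.18% had these 2 directions. The share with both differences past the spread was not computed. Bst2 passed narrowly in the knockout, at 0.40 with a spread of 0.38. The effect in the knockout minus that in wild type was 1.30 for Ifi27 and 0.74 for Bst2. With 1 array per group this difference between the genotypes was not tested.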

How the results depend on the processing

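No paired analysis was possible because the groups share only 1 replicate number; a fit of the fusion with genotype as a block leaves 1 residual degree of freedom and was not run. The numbers of members at least 2-fold higher or lower moved as follows. The share of all genes under the same setting stands in parentheses where it was computed. With 1.5-fold in place of 2-fold, 5 members were lower for ETV6-RUNX1 in wild type (2.99%), 4 in the knockout (8.17%) and 5 for both lesions against the wild-type control (7.66%). Under that rule 1 member was higher (2.25%) and 1 lower (1.84%) for Btg1 loss with control virus, 1 was higher for both lesions (8.0%), and 2 were higher (8.47%) and 1 lower (9.35%) for the difference of effects. With a floor of 7, 1 member was lower for ETV6-RUNX1 in the knockout (1.92%) and 0 for Btg1 loss with ETV6-RUNX1 (0.638%), since Gbp6 and Serpina3g then give bounds short of 2-fold. The 1 member left, Ifi30, gives a bound as well. Among genes above the floor on all arrays, 2 were lower for ETV6-RUNX1 in the knockout (2.13%), 1 for Btg1 loss with ETV6-RUNX1 (0.845%) and 2 for both lesions (1.53%), since Serpina3g drops out. A rule added after the data were seen required 3 times the spread as well as 2-fold. Under it 2 members were lower for ETV6-RUNX1 in the knockout and 1 for Btg1 loss with ETV6-RUNX1. The share of all genes under this rule was not computed. Without a floor, over all 50 members with a value, 4 were lower for ETV6-RUNX1 in the knockout (4.68%), 1 was higher (4.11%) and 1 lower (3.99%) for Btg1 loss with control virus, 3 were lower for Btg1 loss with ETV6-RUNX1 (3.91%), 1 was higher (5.26%) and 4 lower (4.81%) for both lesions, and 2 were higher (8.7%) and 1 lower (9.06%) for the difference of effects. With a floor of 5, 1 was lower for that difference (3.33%). The member medians stayed within -0.30 to -0.18 for ETV6-RUNX1 in wild type. In the knockout they ran from -0.16 with a floor of 7 to 0.03 with a floor of 5, so their sign is not fixed. Gbp6, Serpina3g and Trim25 moved by more than their spread under other floors. With the shorter ISRE core GAAANNG, 37 of 40 members matched, as did 55.9% of all genes. The equal 75th percentile moved no count. The filter to genes measured on every array was not run for the difference of effects, which requires it already.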
